A study of Mus musculus with 24 samples.

Results

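Ezr, Zdhhc14, Snx9, Sytl3, Rps6ka2, Tulp4, Gtf2h5, Serac1, Mpc1 and Fgfr1op are 10 protein-coding genes that lie within 2.81 Mb near the centromere of mouse chromosome 17 (Mmu17). They were taken by symbol, through the Ensembl identifiers of the count table, and are 10 of its 55385 genes and 10 of the 51 listed genes of the Mmu17 segment that the Ts65Dn minichromosome carries as an extra copy. This segment has no homology to human chromosome 21, so a Ts65Dn mouse has 3 copies of genes that are not triplicated in Down syndrome. By gene dosage alone, 1 copy added to 2 gives a fold of 1.5, and each fold was compared with that value.

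RNA-Seq was performed on the hippocampus (HIP) and entorhinal cortex (EC) of 6 Ts65Dn mice and 6 wild-type (wt) littermates, which gave 24 libraries, 1 per region and mouse. The mice were males aged 5 to 6 months. Ts65Dn animals came from a subline of the Jackson Laboratory and carried a freely segregating minichromosome that joins the distal part of Mmu16 to the centromeric part of Mmu17, and carriers and wt littermates shared the F1 B6C3B background, so that alleles of the parental strains can differ between littermates. As the whole tissue was sequenced, fewer cells of a type and less RNA per cell cannot be told apart. Library totals ranged from 23128589 to 40476492 counts on genes.

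The products of these genes act at the cell cortex, on membranes, in signalling and in mitochondria. Ezrin, made from Ezr, links actin filaments to membrane proteins and is known from microvilli and from the fine processes of astrocytes. Zdhhc14 encodes a palmitoyltransferase, Snx9 a sorting nexin that bends membranes in endocytosis with dynamin, and Sytl3 a synaptotagmin-like effector of Rab27 in secretion. Rps6ka2 encodes RSK3, a kinase activated by ERK. Tulp4 belongs to the tubby-like family, Gtf2h5 encodes the smallest subunit of the transcription and DNA repair factor TFIIH, Serac1 a protein of phosphatidylglycerol remodelling and cholesterol trafficking at contacts of mitochondria and endoplasmic reticulum, Mpc1 a subunit of the carrier that brings pyruvate into mitochondria, and Fgfr1op, now also named Cep43, a protein of the centrosome and ciliary base.

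Coordinates are those of GENCODE vM21 on GRCm38. From the centromere outwards, the genes are Zdhhc14 (ENSMUSG00000034265, chr17:5492557-5753811, plus strand), Snx9 (ENSMUSG00000002365, chr17:5841329-5931954, plus strand), Serac1 (ENSMUSG00000015659, chr17:6042196-6079741, minus strand), Gtf2h5 (ENSMUSG00000034345, chr17:6079786-6086517, plus strand), Tulp4 (ENSMUSG00000034377, chr17:6106437-6251128, plus strand), Sytl3 (ENSMUSG00000041831, chr17:6659093-6738044, plus strand), Ezr (ENSMUSG00000052397, chr17:6738041-6782784, minus strand), Rps6ka2 (ENSMUSG00000023809, chr17:7170115-7303315, plus strand), Fgfr1op (ENSMUSG00000069135, chr17:8165501-8196804, plus strand) and Mpc1 (ENSMUSG00000023861, chr17:8282904-8297661, plus strand). Each interval spans the whole gene, exons and introns. Sytl3 and Ezr are converging neighbours whose last 4 exon bases overlap on opposite strands. Serac1 and Gtf2h5 start back to back, with 44 bases between their starts.

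Promoter sequences were read from RefSeq windows on GRCm38.p6, which run from 250 bases before to 50 after a gene's start. Of the 10 genes, 8 had such a window, 11 windows in all, and Zdhhc14 and Snx9 had no entry. The 44 bases between Serac1 and Gtf2h5 are shown because both starts lie beside them, and 250 bases upstream of Ezr, Sytl3 and Rps6ka2 because their levels stood furthest apart among neighbours and between regions. Capitals mark GGGCGG (GC box) and CCAAT, each on either strand, and TATAAA was also searched and found in none of the 11 windows. GGGCGG was in 35.7%, CCAAT in 37.4% and TATAAA in 13.6% of all 32851 windows.
Serac1-Gtf2h5 gap, chr17:6079742-6079785, plus strand: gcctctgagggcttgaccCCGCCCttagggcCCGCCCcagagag
Ezr upstream, chr17:6782781-6783030, minus strand: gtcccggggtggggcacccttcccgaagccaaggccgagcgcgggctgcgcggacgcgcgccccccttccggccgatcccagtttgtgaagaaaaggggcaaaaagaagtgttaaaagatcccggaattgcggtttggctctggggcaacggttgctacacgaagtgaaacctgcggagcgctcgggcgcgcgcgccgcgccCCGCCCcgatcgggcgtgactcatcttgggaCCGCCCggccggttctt
Sytl3 upstream, chr17:6658809-6659058, plus strand: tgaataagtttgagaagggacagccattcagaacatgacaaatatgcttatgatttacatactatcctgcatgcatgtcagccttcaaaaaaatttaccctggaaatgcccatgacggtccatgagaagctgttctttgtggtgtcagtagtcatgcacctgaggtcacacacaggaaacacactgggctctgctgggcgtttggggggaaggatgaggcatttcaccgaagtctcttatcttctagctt
Rps6ka2 upstream, chr17:7169865-7170114, plus strand: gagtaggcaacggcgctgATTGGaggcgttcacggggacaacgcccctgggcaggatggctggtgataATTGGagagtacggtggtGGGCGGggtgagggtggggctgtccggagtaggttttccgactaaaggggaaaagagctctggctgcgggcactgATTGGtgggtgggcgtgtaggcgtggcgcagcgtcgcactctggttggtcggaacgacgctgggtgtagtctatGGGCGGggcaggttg
In these runs, the gap holds 2 matches to GGGCGG, the Ezr run 2, and the Rps6ka2 run 2 beside 3 matches to CCAAT. The Sytl3 run holds no match to any of the letters searched and 3 CG pairs, against 32 in the Ezr run and 19 in the Rps6ka2 run. In the full windows, Sytl3 had 5 CG pairs and a GC content of 46.0%, whereas Ezr had 38 CG pairs and 68.0%.

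The library labelled Ts65Dn replicate 3 stood apart from the other 5 Ts65Dn mice in both regions. Over 81 protein-coding genes of the Mmu16 segment tested in HIP, its median ratio to the wt mean was 1.02, against 1.43 to 1.53 in the other 5 Ts65Dn libraries and 0.984 to 1.01 in wt. In EC (79 genes) it was 0.993, against 1.46 to 1.5 in the other 5 and 0.981 to 1.01 in wt. Its triplicated genes were thus at about the wt level, against its label, and the folds of the members are given with it and without it. In a check of the dissection, the summed level of 6 markers of hippocampal principal cells was 877 to 1107 CPM (counts scaled to a fixed library total, TMM-adjusted) in wt HIP and 241 to 364 CPM in wt EC, and that of 6 markers of cortical projection neurons was 145 to 249 CPM in wt HIP and 598 to 747 CPM in wt EC. Single hippocampal markers had wt folds of HIP over EC from 0.781 to 110, and 1 of the 6 was lower in HIP. Single cortical markers had folds from 0.195 to 0.901.

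The first question was how strongly each gene is transcribed in wt tissue. Levels of different genes were compared per length, as RPKM, that is CPM divided by the kilobases of summed exon, and are medians over 6 mice with the lowest and highest mouse. In wt HIP, Ezr (22.1 RPKM, 21.6 to 27.6) and Gtf2h5 (20.8 RPKM, 20.4 to 21.7) were highest, and their ranges overlapped. Zdhhc14 followed with 11.3 RPKM (9.56 to 13.1), then Mpc1 with 8.19 RPKM (4.72 to 10.1) and Tulp4 with 4.76 RPKM (4.22 to 5.05), each overlapping the next. Snx9 (3.57 RPKM), Serac1 (3.13 RPKM), Fgfr1op (3.04 RPKM) and Rps6ka2 (3.0 RPKM) had overlapping ranges, between 2.66 and 4.05 RPKM, all below that of Tulp4. Sytl3 was nearly silent, with a median of 0.0137 RPKM and 1 to 5 counts per library.

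In wt EC the order was much the same, with Ezr at 20.2 RPKM, Gtf2h5 at 19.9 RPKM and Zdhhc14 at 14 RPKM. Rps6ka2, ninth in HIP, took the fifth place in EC with 7.44 RPKM (5.85 to 8.39), a range that overlapped that of Mpc1 (9.52 RPKM, 6.38 to 11.3). Below it came Tulp4 (4.45 RPKM), Serac1 (3.18 RPKM), Snx9 (2.79 RPKM) and Fgfr1op (2.60 RPKM), of which the last pair overlapped, as did Serac1 and Snx9. Sytl3 had 0 to 3 counts per EC library. Because 21.1% of the 50-base stretches of Sytl3 exons also occur in other genes, some of these few reads could belong elsewhere.

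Next, the regions of the same wt mice were compared with edgeR's quasi-likelihood test and a term for each mouse. Of the 9 genes with enough counts, 6 differed between HIP and EC at a Benjamini-Hochberg adjusted p under 0.05, where 61.3% of all 17196 genes tested did, 31.0% higher in HIP and 30.3% higher in EC. Rps6ka2 fell by 1.26 on the log2 scale from EC to HIP (SE 0.0549, adjusted p = 4.58e-08), and its 6 HIP libraries (27.4 to 35.0 CPM) lay below all 6 EC libraries (56.8 to 81.2 CPM). Zdhhc14 was lower in HIP as well (log2 fold -0.29, SE 0.0682, adjusted p = 0.00368), as was Mpc1 (log2 fold -0.25, SE 0.0556, adjusted p = 0.00282). Snx9 (log2 fold 0.35, adjusted p = 0.000469), Fgfr1op (log2 fold 0.36, adjusted p = 0.00230) and Ezr (log2 fold 0.19, adjusted p = 0.00243) were higher in HIP. For Gtf2h5 the adjusted p was 0.0779, for Tulp4 0.115 and for Serac1 0.283, and their 95% intervals of the fold of HIP over EC ran from 1.0 to 1.10, from 0.993 to 1.12 and from 0.867 to 1.04. CPM scaling assumes that most genes do not differ, and the regions differ in 61.3% of genes, so small folds between regions depend on it. Without the mouse term Mpc1 was not called (log2 fold -0.23, adjusted p = 0.241).

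The main question was by how much the extra copy raised each transcript. Of the 9 genes tested, 5 rose in the Ts65Dn HIP and 6 in the Ts65Dn EC, where 0.542% and 1.15% of all genes tested rose. Ezr, Serac1 and Gtf2h5 rose in both regions. Tulp4 and Fgfr1op rose in HIP, and Zdhhc14, Snx9 and Rps6ka2 in EC. All 9 had folds above 1 in both regions, with a median of 1.39 in HIP (from 1.2 to 1.56) and 1.44 in EC (from 1.09 to 1.66), while the median over all genes tested was 1.0 in each. None fell. The 5 Ts65Dn mice other than replicate 3 lay above all 6 wt mice for 6 of the 9 genes in HIP and 8 in EC, where this held for 1.95% and 2.21% of all genes tested. Without the library labelled Ts65Dn replicate 3, 7 rose in HIP and 8 in EC, with 1.06% and 1.42% of all genes, and the median folds were 1.44 and 1.53.

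**Figure D1:**
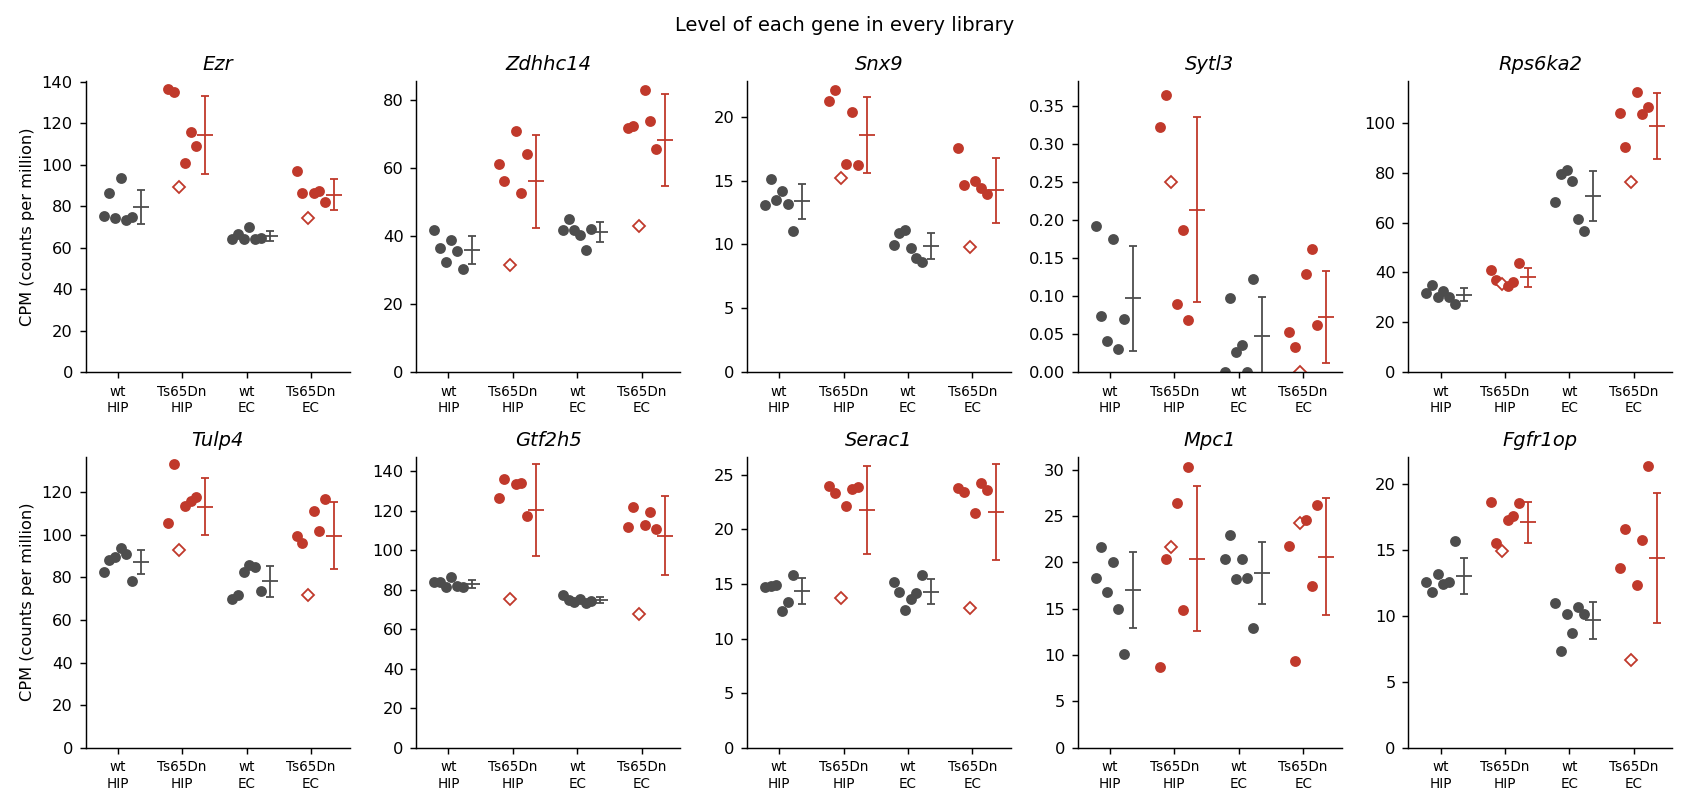
CPM of each gene (1 panel per gene, linear axis from 0) in every library of wt and Ts65Dn HIP and EC; each point is a mouse, the horizontal dash with its bar is the mean ± SD of 6 mice (bars end at 0), and the open diamond is the library labelled Ts65Dn replicate 3. The diamond sits among or next to the wt points in most panels, and the other 5 Ts65Dn mice lie above every wt mouse in 6 of 9 tested genes in HIP and 8 of 9 in EC.

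Ezr was measured with 1596 to 4446 counts per library. In HIP its level was 73.5, 74.9 and 93.7 CPM (lowest, median and highest of 6 mice) in wt and 89.5, 112 and 137 CPM in Ts65Dn. The 5 Ts65Dn mice other than replicate 3 were all above the highest wt mouse, from 101 CPM on. Its HIP fold was 1.44 (95% interval 1.24 to 1.67; log2 fold 0.52, SE 0.102, adjusted p = 0.0286), and 1.5 (1.31 to 1.72; adjusted p = 0.00426) without replicate 3. In EC, Ezr lay at 64.3, 64.6 and 70.1 CPM in wt and at 74.2, 86.3 and 97.1 CPM in Ts65Dn. All 6 Ts65Dn mice, replicate 3 with 74.2 CPM included, were above all 6 wt mice, which held for 1.13% of all genes tested in EC and for no other of the 9 genes there. In EC the fold was 1.30 (1.2 to 1.42; log2 fold 0.38, SE 0.0570, adjusted p = 0.00643), and 1.34 (1.24 to 1.44; adjusted p = 0.000335) without replicate 3.

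Zdhhc14 had the highest fold of the 9 genes in both regions. Its HIP level was 30.3, 36 and 41.6 CPM in wt and 31.5, 58.5 and 70.9 CPM in Ts65Dn, with replicate 3 at 31.5 CPM and the next mouse at 52.6 CPM. The groups were separate but for that mouse. The fold was 1.56 (1.25 to 1.96; adjusted p = 0.0634), which did not pass the test, and 1.70 (1.48 to 1.95; adjusted p = 0.000485) without replicate 3. In EC it lay at 36, 41.8 and 45.1 CPM in wt and 42.9, 72.0 and 82.8 CPM in Ts65Dn, and only replicate 3 overlapped with wt. Its EC fold was 1.66 (1.39 to 1.97; log2 fold 0.73, SE 0.118, adjusted p = 0.00862), and 1.78 (adjusted p = 1.93e-05) without replicate 3.

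Snx9 was the gene whose HIP groups were separate with all mice. Its HIP level was 11.1, 13.4 and 15.1 CPM in wt and 15.2, 18.3 and 22.1 CPM in Ts65Dn, so that all 6 Ts65Dn mice lay above all wt mice, replicate 3 narrowly, with 15.2 CPM against 15.1 CPM. This complete separation held for 0.668% of all genes tested in HIP and for no other of the 9. The fold was 1.39 (1.19 to 1.63; adjusted p = 0.0502), and 1.44 (adjusted p = 0.0216) without replicate 3. In EC, Snx9 was at 8.66, 9.84 and 11.1 CPM in wt and 9.80, 14.5 and 17.6 CPM in Ts65Dn. Its EC fold was 1.44 (1.21 to 1.71; log2 fold 0.53, SE 0.116, adjusted p = 0.0311), and 1.53 (1.34 to 1.74; adjusted p = 0.00162) without replicate 3.

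Sytl3, the secretion gene, was left out of both fits for its low counts. In HIP the 6 wt libraries held 17 counts in all and the 6 Ts65Dn libraries 37, a mean of 0.0970 ± 0.0691 CPM (SD, n = 6) against 0.214 ± 0.121 CPM. The groups overlapped, and 3 Ts65Dn mice, replicate 3 among them, were above the highest wt mouse. A two-sided exact permutation test gave p = 0.0649 (n = 6 per group), and 0.108 without replicate 3. In EC the sums were 8 and 13 counts, with an exact permutation p of 0.446, and 0.251 without replicate 3. A difference between genotypes was not detectable at this depth.

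Rps6ka2, the RSK3 gene, was the signalling gene with a strong regional difference. In HIP it lay at 27.4, 30.9 and 35.0 CPM in wt and 34.5, 36.7 and 44.0 CPM in Ts65Dn, and the groups overlapped by 1 Ts65Dn mouse, which was not replicate 3. Its HIP fold was 1.22 (1.10 to 1.36; adjusted p = 0.0813), and 1.24 (adjusted p = 0.0585) without replicate 3. In EC its level was 56.8, 72.4 and 81.2 CPM in wt and 76.1, 104 and 113 CPM in Ts65Dn. Here only replicate 3 overlapped with wt. In EC the fold was 1.40 (1.2 to 1.63; log2 fold 0.48, SE 0.104, adjusted p = 0.0270), and 1.46 (1.28 to 1.68; adjusted p = 0.00608) without replicate 3. Of the 50-base stretches of its exons, 19.4% also occur in other genes.

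Tulp4, of the tubby-like family, had a smaller fold than most. Its HIP level was 78.5, 88.9 and 94.0 CPM in wt and 93.1, 115 and 133 CPM in Ts65Dn, and replicate 3 was the mouse below the highest wt. Its HIP fold was 1.30 (1.16 to 1.45; log2 fold 0.38, SE 0.0741, adjusted p = 0.0299), and 1.34 (1.22 to 1.48; adjusted p = 0.00283) without replicate 3. In EC it lay at 69.9, 78.1 and 85.9 CPM in wt and 71.7, 101 and 117 CPM in Ts65Dn, again with replicate 3 inside the wt range. In EC the fold was 1.28 (1.10 to 1.48; adjusted p = 0.0723), and 1.35 (adjusted p = 0.00542) without replicate 3. For Tulp4, 23.3% of the 50-base stretches of its exons recur in other genes.

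Gtf2h5 and Serac1, the pair that starts 44 bases apart, had groups that were separate only without replicate 3. Gtf2h5 varied little between wt mice, with 81.3, 82.8 and 86.3 CPM in HIP, and reached 75.4, 130 and 136 CPM in Ts65Dn. In EC it was at 73.2, 74.5 and 77.4 CPM in wt and 67.7, 112 and 122 CPM in Ts65Dn. Replicate 3 was below every wt mouse in both regions, and the other 5 Ts65Dn mice were at or above 117 CPM in HIP and 111 CPM in EC. Its folds were 1.45 in HIP (1.23 to 1.71; adjusted p = 0.0379) and 1.44 in EC (1.23 to 1.68; adjusted p = 0.0234), and without replicate 3 they were 1.56 (1.46 to 1.66; adjusted p = 3.44e-06) and 1.54 (1.45 to 1.64; adjusted p = 8.74e-06). Serac1 lay at 12.6, 14.8 and 15.8 CPM in wt HIP and 13.7, 23.5 and 24 CPM in Ts65Dn HIP. Its EC level was 12.6, 14.2 and 15.8 CPM in wt and 12.8, 23.5 and 24.3 CPM in Ts65Dn. The 5 Ts65Dn mice other than replicate 3 lay between 22.2 and 24 CPM in HIP and between 21.5 and 24.3 CPM in EC, all above wt, while replicate 3 was inside the wt range. Serac1 rose 1.52-fold in HIP (1.27 to 1.81; adjusted p = 0.0299) and 1.51-fold in EC (1.25 to 1.83; adjusted p = 0.0274), and 1.63-fold (1.48 to 1.79; adjusted p = 3.18e-05) and 1.64-fold (1.48 to 1.81; adjusted p = 5.31e-05) without replicate 3. Serac1 shares 297 exon bases with Synj2 on the opposite strand, and whether the counting used strand is not stated in the sources used here.

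Fgfr1op, of the centrosome, was measured with only 191 to 682 counts per library. In HIP it lay at 11.8, 12.6 and 15.7 CPM in wt and 14.9, 17.4 and 18.6 CPM in Ts65Dn, and the highest wt mouse was above 2 Ts65Dn mice. Its HIP fold was 1.31 (1.16 to 1.48; log2 fold 0.39, SE 0.0813, adjusted p = 0.0377), and 1.34 (1.19 to 1.51; adjusted p = 0.0200) without replicate 3. Its EC level was 7.29, 10.1 and 11 CPM in wt and 6.61, 14.7 and 21.3 CPM in Ts65Dn. Its coefficient of variation in Ts65Dn EC was 34.1%, the largest of the 9 genes, and replicate 3 was below every wt mouse. With a fold of 1.49 (1.10 to 2.02; adjusted p = 0.141) it did not pass the test in EC, and without replicate 3 it did (1.65, 1.34 to 2.03; adjusted p = 0.0153).

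Mpc1 was the gene of the 9 for which no call was made in either region, with or without replicate 3. In HIP it lay at 10.1, 17.6 and 21.7 CPM in wt and 8.72, 21 and 30.3 CPM in Ts65Dn, and in EC at 12.9, 19.3 and 22.9 CPM in wt and 9.34, 23.0 and 26.2 CPM in Ts65Dn. The lowest library of each region belonged to Ts65Dn, and the groups overlapped widely. The folds were 1.2 (0.823 to 1.74; adjusted p = 0.681) in HIP and 1.09 (0.812 to 1.47; adjusted p = 0.792) in EC, with the broadest HIP interval of the 9 genes. Without replicate 3 they were 1.18 (adjusted p = 0.698) and 1.05 (adjusted p = 0.895).

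Mpc1 has a processed pseudogene, Mpc1-ps, on chromosome 12 (GRCm38, chr12:110858565-110858894, minus strand), outside the triplicated segments. Its 330 bases match the 330 coding bases of an annotated Mpc1 transcript but for 1 substitution, G41A, counted from 1 at the start codon with the base of Mpc1 first. The first 100 bases of each, from the GENCODE transcripts, are shown because the reads are 50 bases long, with that base in capitals.
Mpc1: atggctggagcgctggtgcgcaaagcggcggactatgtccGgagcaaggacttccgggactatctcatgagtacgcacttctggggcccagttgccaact
Mpc1-ps: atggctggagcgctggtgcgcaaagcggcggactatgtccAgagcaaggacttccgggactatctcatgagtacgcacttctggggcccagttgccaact
Of the 281 stretches of 50 bases in Mpc1-ps, 240 occur letter for letter in an Mpc1 transcript. Sequence alone thus does not tell most 50-base reads from this stretch apart. The coding bases of Mpc1 are joined across 4 exon junctions, while Mpc1-ps is unbroken. How reads that match both genes were counted is not given in the sources used here. Mpc1-ps was counted in every library. In HIP its level was 5.76, 6.52 and 10.0 CPM in wt and 4.47, 13.5 and 24.5 CPM in Ts65Dn, and in EC 6.51, 8.14 and 9.19 CPM in wt and 7.93, 13.3 and 24.3 CPM in Ts65Dn. In each region 4 of 6 Ts65Dn mice lay above every wt mouse. The fold of this gene with 2 copies was 1.89 (1.2 to 2.98; adjusted p = 0.173) in HIP and 1.87 (1.31 to 2.68; adjusted p = 0.0615) in EC. Without replicate 3 it was called in both regions, with folds of 2.15 (adjusted p = 0.0279) and 2.04 (adjusted p = 0.0239).

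Libraries low in Mpc1 tended to be high in Mpc1-ps. Ts65Dn replicate 1 had 8.72 CPM of Mpc1 and 24.5 CPM of Mpc1-ps in HIP, and replicate 2 had 9.34 and 24.3 CPM in EC. After the group means were subtracted, the log2 levels of the pair had a Pearson r of -0.73 over the 24 libraries, which share the normalization, given as a description. The share of Mpc1-ps in the counts of both was 22.3% to 49.8% in wt HIP and 17.1% to 73.8% in Ts65Dn HIP, and 24.5% to 41.5% and 24.6% to 72.2% in EC. In 10 of the 12 mice the share in HIP and that in EC were within 8.28 percentage points of each other. In Ts65Dn replicate 1 it was 73.8% in HIP and 40.2% in EC, and in replicate 2 it was 43.4% and 72.2%. Over the 300 most variable genes each HIP library was closest to the EC library of its own mouse, in 12 of 12 mice.

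**Figure D2:**
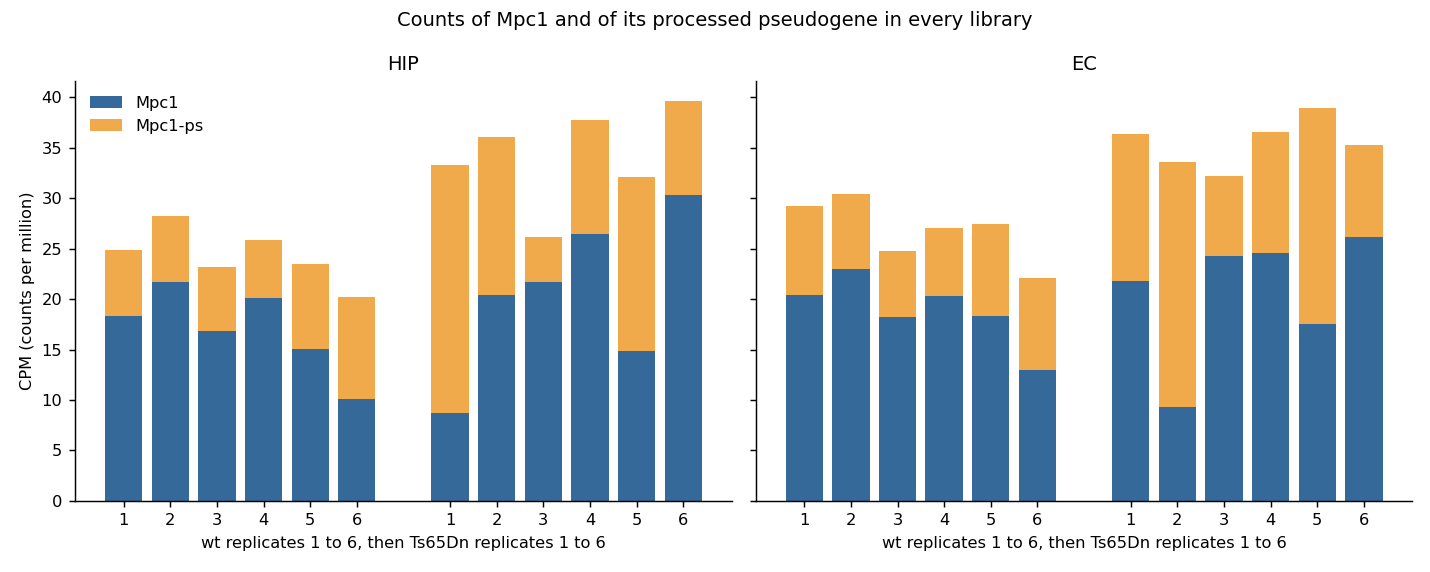
CPM of Mpc1 (blue) and of its processed pseudogene Mpc1-ps (orange), stacked, in each wt and Ts65Dn mouse, for HIP and EC. The split between the colours differs widely between Ts65Dn mice, while the whole bars are 20.2 to 28.2 CPM in wt HIP and 26.1 to 39.6 CPM in Ts65Dn HIP, and 22.1 to 30.4 and 32.2 to 39 CPM in EC.

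When the counts of Mpc1-ps were added to those of Mpc1, an alternative chosen after the values were seen, the spread shrank. The sum was 20.2, 24.2 and 28.2 CPM in wt HIP and 26.1, 34.7 and 39.6 CPM in Ts65Dn HIP, where only replicate 3 overlapped with wt. In EC it was 22.1, 27.2 and 30.4 CPM in wt and 32.2, 35.9 and 39 CPM in Ts65Dn, and all 6 Ts65Dn mice lay above all 6 wt mice. The summed fold was 1.41 (1.21 to 1.63; log2 fold 0.49, adjusted p = 0.0331) in HIP and 1.32 (1.18 to 1.48; log2 fold 0.40, adjusted p = 0.0168) in EC, both called. Without replicate 3 it was 1.47 (adjusted p = 0.00351) and 1.35 (adjusted p = 0.00955). Mpc1 also shares 480 exon bases with 4930506C21Rik on the opposite strand. Why reads divided differently between the copies was not tested.

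Each fold was then set against 1.5. In this test the edgeR fit carried a factor of 1.5 in the Ts65Dn libraries, so that a small p means a fold away from 1.5, and 83.3% of all genes in HIP and 84.7% in EC were below it. Rps6ka2 (fold 1.22, adjusted p = 0.00155), Tulp4 (1.30, adjusted p = 0.0178) and Fgfr1op (1.31, adjusted p = 0.0370) were below 1.5 in HIP. In EC, Ezr (1.30, adjusted p = 0.00387), Tulp4 (1.28, adjusted p = 0.0376) and Mpc1 (1.09, adjusted p = 0.0455) were. As most genes differ from 1.5, the adjustment hardly changes p in this test. Unadjusted, it was 0.0302 for Fgfr1op in HIP, and 0.0313 for Tulp4 and 0.0383 for Mpc1 in EC. Tulp4 was the gene below 1.5 in both regions with all mice. With each mouse left out in turn, Rps6ka2 and Tulp4 in HIP and Ezr in EC were below 1.5 in all 12 fits. Fgfr1op in HIP was so in 7 of 12, Tulp4 in EC in 6 and Mpc1 in EC in 5. None of the 9 was above 1.5, where 0.0288% of all genes in HIP and 0.0763% in EC were. The 95% intervals of 6 genes in each region held 1.5.

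As the triplicated genes of the library labelled Ts65Dn replicate 3 were at about the wt level, the test was repeated without it. Leaving it out raised the folds of 8 of the 9 genes and lowered that of Mpc1. Rps6ka2 (fold 1.24, adjusted p = 0.00410) and Tulp4 (1.34, adjusted p = 0.0324) stayed below 1.5 in HIP, and Fgfr1op did not (1.34, adjusted p = 0.0791). In EC, Ezr (1.34, adjusted p = 0.00625) and Mpc1 (1.05, adjusted p = 0.0389) stayed below, and Tulp4 did not (1.35, adjusted p = 0.0517). Zdhhc14 was then above 1.5 in EC (1.78, 1.61 to 1.96; adjusted p = 0.00345), where 0.221% of all genes were, and none of the 9 was in HIP, where 0.0688% were. Without that library 82.9% of all genes in EC and 83.3% in HIP were below 1.5. The sum of Mpc1 and Mpc1-ps was below 1.5 in EC with all mice (adjusted p = 0.0365) and not without replicate 3 (adjusted p = 0.0732). As Mpc1-ps has 2 copies, 1.5 is the dosage value for this sum only if all Mpc1-ps reads come from Mpc1, which was not tested.

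**Figure D3:**
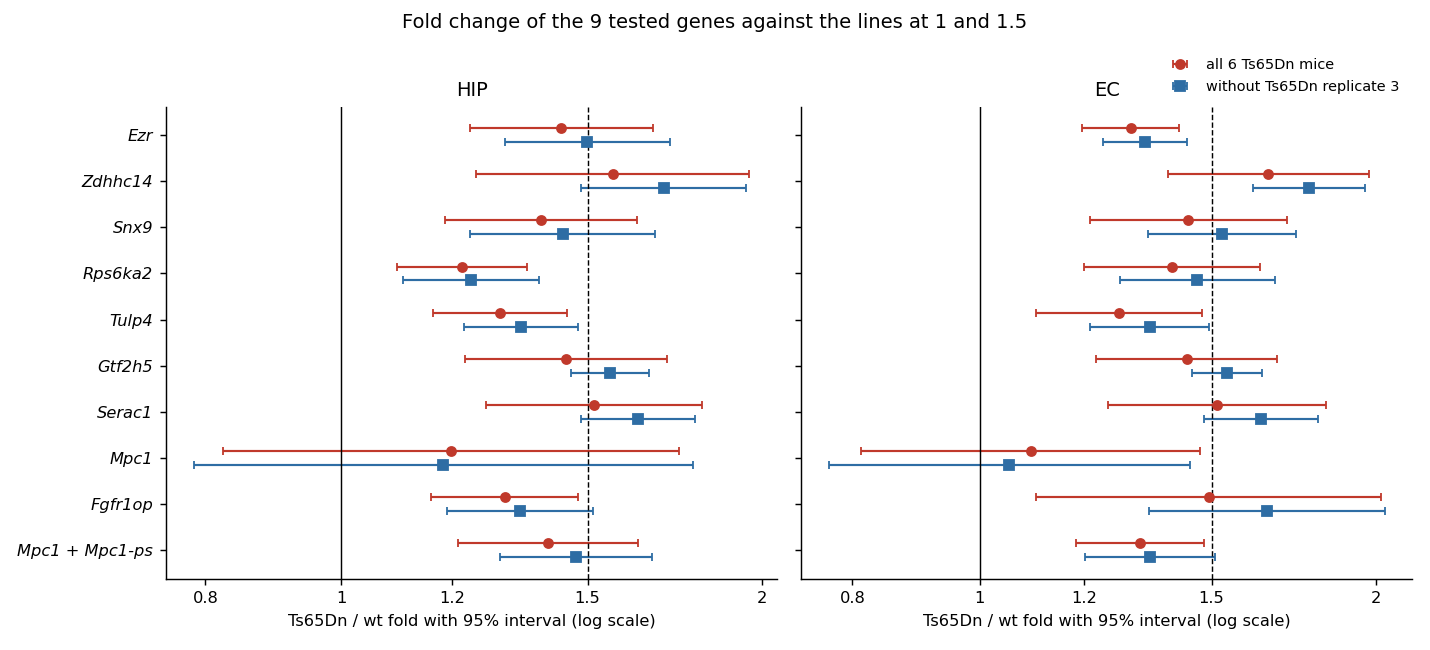
Ts65Dn over wt fold of the 9 tested genes and of Mpc1 with Mpc1-ps added, with 95% intervals on a log axis, in HIP and EC; circles use all 6 Ts65Dn mice and squares leave out replicate 3, and the lines mark folds of 1 and 1.5. The intervals of Mpc1 reach across 1, that of Rps6ka2 in HIP ends at 1.36 and that of Ezr in EC at 1.42, and without replicate 3 that of Zdhhc14 in EC begins at 1.61.

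Mouse by mouse, the ratio to the wt mean was taken as a median over the 9 genes. It was 0.900 to 1.06 in wt HIP and 0.978 to 1.02 in wt EC. Among Ts65Dn mice other than replicate 3 it was 1.32 to 1.56 in HIP and 1.47 to 1.51 in EC. Replicate 3 had 1.12 in HIP and 0.992 in EC, so that it was above the wt range in HIP over these 9 genes and inside it in EC. For comparison, its median over 21 other protein-coding genes of the Mmu17 segment was 0.931 in HIP and 0.947 in EC.

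**Figure D4:**
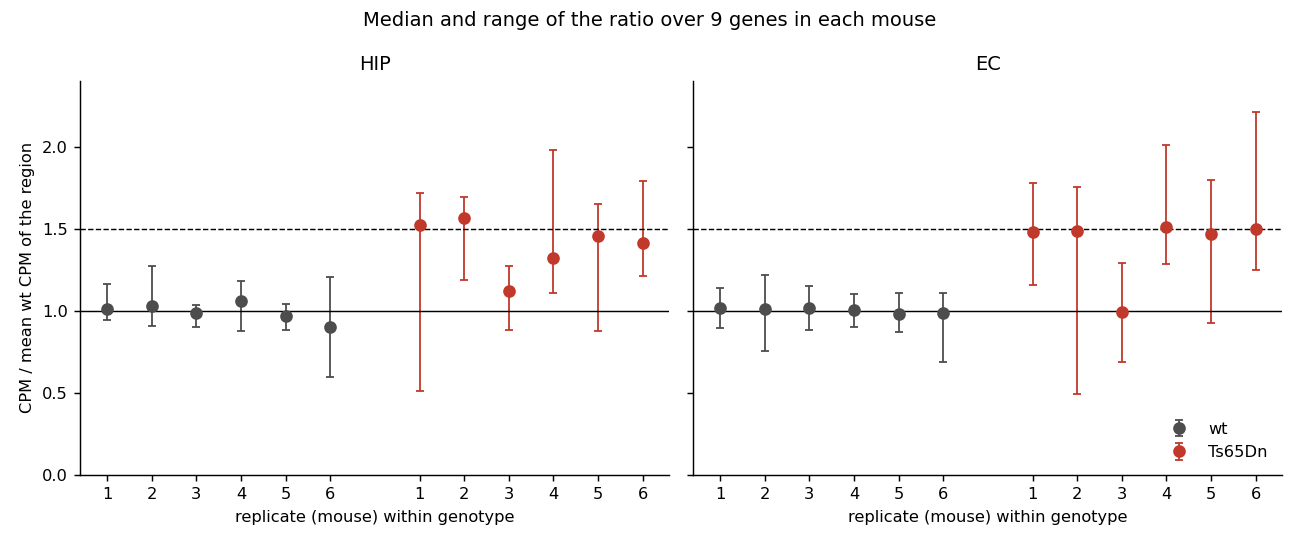
Ratio of CPM to the wt mean of the region in each mouse, as the median over the 9 tested genes with a bar from the lowest to the highest gene; the lines mark 1 and 1.5. The medians of wt mice lie near 1, those of 5 Ts65Dn mice between 1.32 and 1.56, and Ts65Dn replicate 3 is at 1.12 in HIP and 0.992 in EC; the low ends of replicate 1 in HIP and replicate 2 in EC are Mpc1.

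Whether the effect of genotype differed between regions was tested as an interaction with a term for each mouse. No gene of the 9 passed, nor did any of the 18109 genes tested with edgeR, of which 742 had an unadjusted p under 0.05 (4.10%). Rps6ka2 had a fold ratio of HIP over EC of 0.868 (95% interval 0.756 to 0.996; unadjusted p = 0.0445, adjusted p = 1.0), and Ezr one of 1.10 (0.982 to 1.22; unadjusted p = 0.0959). Ezr was thus nearer 1.5 in HIP and Rps6ka2 in EC, without a difference between regions that passed the correction. Without replicate 3 the unadjusted p was 0.0149 for Rps6ka2 and 0.0417 for Ezr (adjusted p = 0.762 for both). The intervals of the other 7 all held 1.

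The 9 genes stood close to the rest of their segment. Of the other 41 listed Mmu17 genes, 29 were tested in each region, 6 rose in HIP and 8 in EC, none fell, and their median folds were 1.40 in both, with a range from 0.741 to 2.82 in HIP and from 0.632 to 3.03 in EC. Of the 20 nearest tested protein-coding genes beyond the end of the segment, which have 2 copies, none was called in either region by edgeR, and their median folds were 1.01 in HIP (from 0.751 to 1.15) and 0.988 in EC (from 0.828 to 1.23). Likeness to the mean pattern of the members was measured as Pearson r of log2 levels over 24 libraries with the region means subtracted. The members themselves, which enter that mean, had r from 0.76 (Fgfr1op) to 0.94 (Gtf2h5), and 0.23 for Mpc1. Among 16592 genes compared, the highest besides the members were Gart, Rwdd2b and Wrb (each 0.96), App (0.95) and Itsn1 (0.94), all of the triplicated Mmu16 segment. The pattern was thus not particular to the members. The highest outside the segment lists were A730009L09Rik, the processed pseudogenes Gm11966 (chromosome 11, 0.90), Gm5436 (chromosome 12, 0.89) and Gm8566 (chromosome 6, 0.87), and the coding gene Tbc1d13 (chromosome 2, 0.84). A730009L09Rik (chromosome 16, r = 0.92) ends 194 kb before Mrpl39, the first gene of the Mmu16 list, but distal to the guide sites that the methods of the study place beside the breakpoint, and so within the triplicated segment. These values are descriptions, as libraries of 1 mouse and 1 genotype share their source.

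Genes that work with the members were followed in 10 lists of partners, 103 genes with 2 copies, and 98 of them had enough counts in each region. In HIP none was called by edgeR, and in EC 1 rose and 1 fell, where 1.04% and 2.5% of all genes were called in either direction, and the median fold was 1.01 in HIP and 1.0 in EC. Sytl1, a relative of Sytl3 that also binds Rab27, rose 2.64-fold in EC (log2 fold 1.40, SE 0.295, adjusted p = 0.0259), from 0.760 ± 0.266 CPM to 2.02 ± 0.841 CPM (SD, n = 6). Its HIP fold was 1.97 (adjusted p = 0.157). Without replicate 3 the adjusted p of Sytl1 was 0.0352 in EC and 0.199 in HIP. Rps6ka3, which encodes RSK2, a relative of the Rps6ka2 product, fell in EC (fold 0.833, log2 fold -0.26, SE 0.0623, adjusted p = 0.0408), from 86.6 ± 6.41 CPM to 72.1 ± 5.59 CPM (SD, n = 6). In HIP Rps6ka3 had a fold of 0.913 (adjusted p = 0.243), and without replicate 3 its EC adjusted p was 0.0584. None of the 10 ezrin partners, 20 tested palmitoyltransferases, 13 Snx9 partners, 9 TFIIH subunits, 11 genes of pyruvate entry, 7 of cardiolipin synthesis, 8 of the centriole and ciliary base or 2 tested tubby relatives was called in either region, and the median fold of these lists lay between 0.959 and 1.06.

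Markers of other cell types were read beside these folds. Of 10 marker lists, P2ry12, a receptor of microglia, fell in both regions, to a fold of 0.831 in HIP (adjusted p = 0.0422) and 0.732 in EC (adjusted p = 0.0226), and it was the gene of 6 in its list that was called. Without replicate 3 its adjusted p was 0.0483 and 0.0309. The summed level of that list, P2ry12 included, was 275 to 316 CPM in wt HIP and 262 to 301 CPM in Ts65Dn HIP, and 289 to 394 and 270 to 356 CPM in EC. The median fold of its 6 genes was 1.01 in HIP (highest 1.13) and 0.997 in EC (highest 1.12), so the list as a whole did not fall with P2ry12. Drd2, a dopamine receptor from the list of striatal neurons, rose 2.95-fold in EC (adjusted p = 0.0254, and 0.00940 without replicate 3). Its EC level was low, 1.30 ± 0.537 CPM in wt and 3.81 ± 1.83 CPM in Ts65Dn (SD, n = 6). In HIP its fold was 1.08 (adjusted p = 0.823). Its list summed to 168 to 195 CPM in wt EC and 157 to 236 CPM in Ts65Dn EC, with EC folds from 0.852 to 3.22 and a median of 1.32. The lists of astrocytes, in which Ezr is known to be active, and of choroid plexus, an epithelium with ezrin, held no gene that was called. Astrocyte markers summed to 1707 to 1996 CPM in wt HIP and 1567 to 1965 CPM in Ts65Dn HIP, and to 1335 to 1722 CPM and 1102 to 1462 CPM in EC, with a median fold of 0.935 in HIP and 0.886 in EC. Choroid plexus markers summed to 40.9 to 409 CPM in wt HIP and 40.8 to 405 CPM in Ts65Dn HIP, and to 8.32 to 11.5 CPM and 7.30 to 11.2 CPM in EC. Their median fold was 1.26 in HIP (from 1.02 to 1.34) and 0.982 in EC, where 4 of the 7 were tested. Immediate early genes summed to 166 to 410 CPM in wt HIP and 169 to 668 CPM in Ts65Dn HIP, and to 231 to 587 CPM and 184 to 1182 CPM in EC, with median folds of 1.27 and 1.33. No gene was called in the lists of oligodendrocytes, endothelium, meningeal fibroblasts, hippocampal principal cells, cortical projection neurons or immediate early genes, and no list was at 0. Of all genes tested, 1.04% in HIP and 2.5% in EC were called in either direction. A short list with none called is near that share and does not show that a cell type was unchanged. Meningeal markers summed to 36.9 to 89.3 CPM in wt HIP and 39.6 to 164 CPM in Ts65Dn HIP, with a median fold of 1.51 in HIP (from 1.04 to 1.87) and 0.970 in EC. The part of cell composition in the folds of the members was not tested.

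The number called depended on single mice. In HIP, 0 of the 9 were called without wt replicate 1, 2, 3 or 5 or Ts65Dn replicate 6, 1 without wt replicate 6 or Ts65Dn replicate 1 or 4, 2 without wt replicate 4 or Ts65Dn replicate 2 or 5, and 7 without Ts65Dn replicate 3. In EC the count ranged from 2 to 8, and was 2 or 3 without wt replicate 1, 4 or 5 or Ts65Dn replicate 1, 2 or 4. Among all genes, 54 of 17515 were called in HIP without Ts65Dn replicate 6 and 318 of 17452 without Ts65Dn replicate 3. In EC 90 of 17166 were called without Ts65Dn replicate 1. In each of these 24 fits 8 of the 9 had an unadjusted p under 0.05 in edgeR and all 9 had folds above 1. The share of all genes under that unadjusted cutoff is not given here. These fits share most of their mice and are not independent.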

How the data were processed

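Hippocampus and entorhinal cortex of the same 12 mice were sequenced as 50-base single-end reads. For library preparation, the methods give a stranded kit for total RNA, depleted of rRNA, but also poly(A) RNA, while the labels give a stranded mRNA kit. The authors aligned the reads with Hisat2 to GRCm38 (Ensembl 99) and deposited raw counts per gene made with HTSeq-count, and the strand setting is not given in the sources used here. The deposited tables of the authors' own comparisons (DESeq2, FCROS) hold fold changes and p-values and were not used. Ts66Yah samples were not analysed here.

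Counts were filtered (filterByExpr), TMM-scaled and tested with edgeR 4.0.16 in R 4.3.3 by the quasi-likelihood test, with Benjamini-Hochberg adjustment over all genes tested and a threshold of 0.05. The test against 1.5 used the same fit with that fold as an offset, and 95% intervals came from the standard error. Regions were linked by a term for each mouse, since both come from the same animals: each HIP library correlated best with the EC library of its own mouse (r from 0.41 to 0.81). CPM and RPKM used TMM-scaled totals. RPKM divided by the summed exon length in GENCODE vM21. Likeness used log2(CPM + 0.1). Sytl3 was compared with an exact permutation test over 924 splits. The fits were also run on simulated counts with known changes. These held no level shared by the libraries of a mouse and no library like Ts65Dn replicate 3. The simulation therefore does not check the fits for either.

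The members, partner lists and marker lists were chosen with earlier results of these data known. Named were all members, at most 3 called genes of each partner list and of the marker lists, and the 5 genes inside and the 5 genes outside the segment lists most like the members. Of the genes outside, A730009L09Rik lies within the Mmu16 segment by the methods of the study. Mpc1-ps was added to Mpc1, and separation of the groups without Ts65Dn replicate 3 was counted, after the values were seen. Alternatives were DESeq2 1.42.0, its size factors, other filters (none, or 10 counts in every library), a replicate block, 1 fit of all libraries, a threshold of 0.1 and leaving out each mouse.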

Additional observations from a re-analysis of the deposited data

Results flagged for a closer look

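Of 48 sets of 6 libraries examined, 5 had a library set apart from the others by more than Dixon's 95% limit, where chance flags about 1 in 20 groups. In the Ts65Dn groups, 4 of these were replicate 3. It had 13.7 CPM of Serac1 in HIP against 22.2 to 24 CPM in the other 5 mice, and 12.8 CPM in EC against 21.5 to 24.3 CPM. Its Gtf2h5 level was 75.4 CPM in HIP against 117 to 136 CPM, and 67.7 CPM in EC against 111 to 122 CPM. The fifth was wt replicate 6 in HIP, with 15.7 CPM of Fgfr1op against 11.8 to 13.2 CPM in the other wt mice. The reason for these values was not tested.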

How the results depend on the processing

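In HIP, the count of members called changed from 5 to 8 at an adjusted p under 0.1, to 8 with DESeq2, to 0 with the replicate block, and from 0 to 7 when 1 mouse was left out. In EC it changed from 6 to 1 with the replicate block and from 2 to 8 when 1 mouse was left out. The number below 1.5 ranged from 2 to 3 in HIP and from 1 to 3 in EC over single mice left out. The median fold over the same fits was 1.34 to 1.44 in HIP and 1.38 to 1.53 in EC. Among all genes, the block left 29 calls in HIP and 36 in EC, DESeq2 gave 662 and 1141, and a threshold of 0.1 gave 389 and 1025. Without a filter EC had 275 calls, and the interaction 37 instead of 0. The cause was not tested. Replicate numbers joined different mice of wt and Ts65Dn (r from -0.20 to 0.14 in HIP, with 0 of 6 closest to their own number, and from -0.11 to 0.17 in EC, with 1 of 6), so the block pairs nothing known. The interaction changed sign, uncalled, for Serac1 (-0.00 with no replicate block and -0.01 with no filter) and Gtf2h5 (-0.01 with no filter). With 1 mouse left out it did so for Serac1 (range -0.02 to 0.05), Gtf2h5 (-0.00 to 0.02), Mpc1 (-0.10 to 0.36), Tulp4 (-0.03 to 0.07) and Snx9 (-0.10 to 0.01), as log2 values. In the other comparisons, no member changed direction under any alternative run. Sytl3 had at most 12 counts in a library.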
